A study of Homo sapiens with 15 samples.

Results

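The human APOBEC3 genes, APOBEC3A, APOBEC3B, APOBEC3C, APOBEC3D, APOBEC3F, APOBEC3G and APOBEC3H, were followed in THP-1 cells, a human monocytic leukemia line, after stimulation with bacterial extracellular vesicles (BEVs). Their rows were picked by gene symbol, which gave 7 of the 60286 genes in the count table, and all 7 had enough counts to enter the test with 17198 genes. The data are RNA-seq counts of 15 libraries that fall into 5 groups of 3. The control group (NC) was given PBS alone. Cells of the EUC and EPL groups received 1 µg/mL BEVs of E. coli isolated by ultracentrifugation (UC) or by precipitation with ε-poly-L-lysine (PL). The SUC and SPL groups received 10 µg/mL BEVs of S. aureus isolated by UC or PL, so that species and dose changed together. All groups were wild-type cells of the same line, and the methods of the study give 6 h of incubation. No label says that the 3 libraries of a group came from separate cultures, so the p-values measure the spread between these samples, which may be technical.

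APOBEC3 proteins are cytidine deaminases. They turn cytosine into uracil in single-stranded DNA, which mutates or blocks retroviruses and retrotransposons, and the uracil can be removed by base excision repair. HIV-1 counters several of them with Vif, an adaptor that brings them to a ubiquitin ligase. In monocytes and macrophages several family members are known as genes that respond to type I interferon.

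The 7 genes lie side by side on the plus strand of chromosome 22 (hg38, GENCODE release 44), between CBX6 and CBX7. From the centromeric end, APOBEC3A (ENSG00000128383) spans bases 38952741 to 38963184. APOBEC3B (ENSG00000179750) spans 38982347 to 38992804, and APOBEC3C (ENSG00000244509) spans 39014257 to 39020352. APOBEC3D (ENSG00000243811) spans 39021113 to 39033277, and APOBEC3F (ENSG00000128394) spans 39040604 to 39055972. APOBEC3G (ENSG00000239713) spans 39077067 to 39087743, and APOBEC3H (ENSG00000100298) spans 39097224 to 39104067. All 7 are annotated as protein-coding, and the counted reads are those on their exons. The genes arose by duplication, so reads can be alike between them. Of all 150-base stretches of their transcripts, the share that occurs unchanged in another member was 4.14% for APOBEC3A, 5.72% for APOBEC3B, 4.81% for APOBEC3D, 3.75% for APOBEC3F and 2.15% for APOBEC3G, and no such stretch was found in APOBEC3C or APOBEC3H. APOBEC3D is the least certain member, because 2104 of its 2529 exon bases (83.2%) also belong to a read-through gene on the same strand (ENSG00000284554). That gene had 0 counts in all 15 libraries. On the opposite strand, APOBEC3B-AS1 covers 244 exon bases (12.9%) of APOBEC3B and had 5 counts in all libraries together.

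The libraries held 14399421 to 16637345 counts on genes. Levels are given as CPM, counts scaled in the usual way to the TMM-normalized library size. At this depth 3 counts in a library correspond to between 0.176 and 0.207 CPM, a floor that covers counting error only. The cells had the monocyte markers of their label, with 11 of 12 at 1 CPM or more in every group. The summed level of these markers was 1477 to 1522 CPM in NC and 1939 to 2541 CPM in stimulated libraries. The marker under 1 CPM was CD68. Most of that difference was SPI1, with a mean of 471 CPM in NC and 960 to 1198 CPM in the stimulated groups. CSF1R (208 CPM in NC and 281 to 334 CPM in the others) and CD14 (3.77 CPM and 7.01 to 8.87 CPM) also had higher means in every stimulated group. In contrast, CD33, LYZ, ITGAM and MPO had lower means in every stimulated group than in NC (CD33 82.8 CPM in NC and 50.1 to 64.8 CPM in the others). Markers of T cells, in which APOBEC3G is abundant, stayed under 1 CPM in sum (0.986 CPM at most), with CD3D and CD3G at 0 counts. Their sum was 0.0640 to 0.238 CPM in NC and 0.128 to 0.986 CPM in stimulated libraries, nearly all of it from TRAC, and all 3 erythroid markers were at 0. The summed B cell markers were at 9.47 to 11.1 CPM in NC and 12.2 to 27.1 CPM in stimulated libraries, mostly from PAX5. The fibroblast markers summed to 0.640 to 1.00 CPM in NC and 1.85 to 5.38 CPM in stimulated libraries, almost all from COL1A1, the NK cell markers to 23.6 to 29.9 CPM and the epithelial markers to at most 4.0 CPM in all libraries. The part of these markers in the results was not tested. In bulk RNA, fewer cells that use a gene and less RNA per cell cannot be told apart. Clustering of all tested genes set EUC2, EUC3, EPL1 and SUC3 apart from the other stimulated libraries. Where leaving them out changed whether a family member met the thresholds for differential expression, both values are given.

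Compared with non-stimulated cells, all 4 kinds of BEVs raised APOBEC3A and APOBEC3G and lowered APOBEC3C. APOBEC3F rose in every stimulated group as well, by less than 2-fold in SUC. Genes with an adjusted p of at most 0.01 and at least a 2-fold change were counted as differentially expressed genes (DEGs), after the thresholds of the study. With p-values from edgeR's quasi-likelihood test, adjusted by Benjamini-Hochberg, APOBEC3A, APOBEC3F and APOBEC3G were DEGs in EUC, EPL and SPL, and APOBEC3A and APOBEC3G in SUC. These are 3 of 7 members in EUC, where 9.43% of all tested genes were higher DEGs, 3 of 7 in EPL (9.38%), 2 of 7 in SUC (6.82%) and 3 of 7 in SPL (7.76%). APOBEC3A and APOBEC3G were higher DEGs in all 4 comparisons, as were 6.33% of the tested genes. No member was a lower DEG in EUC, EPL, SUC or SPL, where 5.75%, 5.15%, 3.06% and 3.7% of the tested genes were. The 4 comparisons share the same 3 NC libraries and are therefore not independent of each other.

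**Figure D1:**
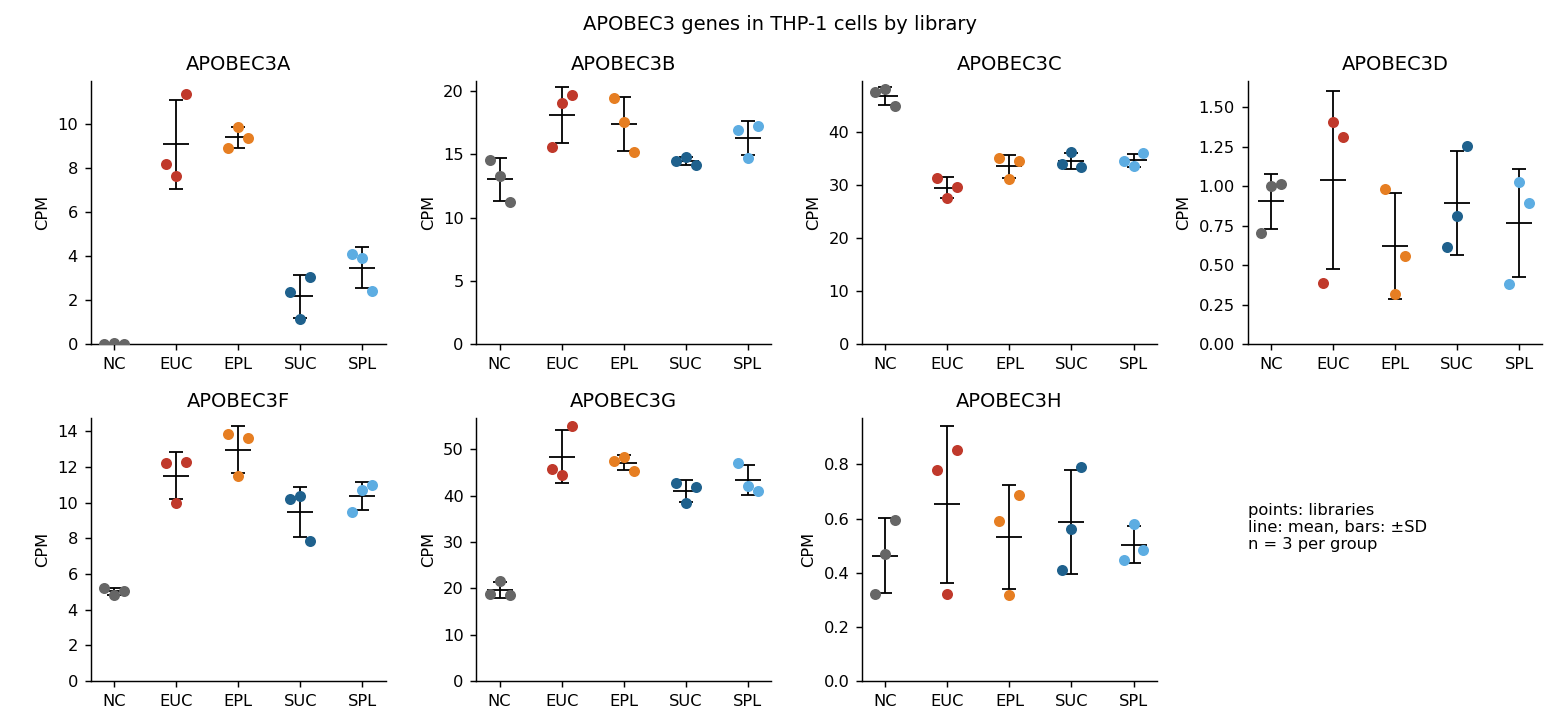
Level of each APOBEC3 gene in CPM (linear axis from 0) in the 15 libraries, grouped as NC, EUC, EPL, SUC and SPL. Points are libraries, the line is the mean and the bars are the SD (n = 3). APOBEC3A is near 0 in NC and reaches 11.4 CPM in EUC, APOBEC3F and APOBEC3G lie above NC in all 12 stimulated libraries, and APOBEC3C lies below NC in all 12.

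APOBEC3A has a single deaminase domain and is the member best known for induction by interferon in myeloid cells. It had 0, 1 and 0 counts in the NC libraries. It had 126, 119 and 173 counts in EUC and 136, 155 and 150 in EPL. It had 35, 18 and 46 counts in SUC and 64, 61 and 35 in SPL. Every stimulated library thus lay above every NC library, a pattern shown by 17.5% of the tested genes. The mean level was 9.06 ± 2.02 CPM for EUC and 9.39 ± 0.477 CPM for EPL, against 2.18 ± 0.973 CPM for SUC and 3.48 ± 0.924 CPM for SPL (SD, n = 3). With 1 count in NC, the size of the rise could be given only with a wide counting interval. The ratio of normalized counts to NC was 447 in EUC (95% exact interval 79.8 to 17699) and 464 in EPL (82.9 to 18369.5). It was 107 in SUC (18.7 to 4261) and 173 in SPL (30.6 to 6876). These intervals cover counting error only. In edgeR's quasi-likelihood test the adjusted p was 2.18e-09 for EUC, 2.01e-09 for EPL, 2.53e-06 for SUC and 2.03e-07 for SPL.

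APOBEC3G has a pair of deaminase domains and is the member through which the antiviral role of the family was found. In NC its levels were 18.7, 21.6 and 18.6 CPM. In EUC they were 45.8, 44.5 and 55.0 CPM, and in EPL 47.6, 48.4 and 45.3 CPM. In SUC they were 42.8, 38.4 and 41.8 CPM, and in SPL 47.0, 42.1 and 41.1 CPM. The lowest stimulated library, at 38.4 CPM, was well above the highest NC library. All 12 stimulated libraries lay above all NC libraries for 17.5% of the tested genes. Stimulated groups next to each other in order of their means overlapped. Against NC, the log2 fold change of EUC was 1.30 (SE 0.101), that of EPL 1.26, that of SUC 1.06 and that of SPL 1.14. The largest of the adjusted p-values from edgeR was 3.07e-07, in SUC. The change in SUC was close to the 2-fold threshold, with a 95% interval from 0.84 to 1.27 on the log2 scale, and it was under the threshold (0.94) when libraries were scaled by their total counts alone.

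APOBEC3F, which also has a pair of domains and acts beside APOBEC3G on HIV-1 without Vif, had a lower level. Its NC libraries were at 5.18, 4.82 and 5.07 CPM. The EUC libraries were at 12.2, 10.0 and 12.3 CPM and the EPL libraries at 13.8, 11.5 and 13.6 CPM. The SUC libraries were at 10.2, 10.4 and 7.86 CPM and the SPL libraries at 9.45, 10.7 and 11.0 CPM. No stimulated library reached down to the NC range, a pattern shown by 17.5% of the tested genes. SUC replicate 3 was the lowest of the 12. The log2 fold change was 1.19 in EUC, 1.37 in EPL and 1.04 in SPL, with SEs of 0.141 to 0.143, and the adjusted p-values of edgeR were 2.55e-06, 4.89e-07 and 1.73e-05. In SUC it was 0.91 with an adjusted p of 8.54e-05 in the same edgeR test, which passed the p threshold, as 12.4% of the tested genes did in this direction, and missed 2-fold. Without SUC replicate 3 it was 1.03 with an edgeR adjusted p of 3.21e-05, and without the 4 libraries that clustered apart it was 1.04 with 3.30e-07, so that APOBEC3F counted as a DEG in SUC in both cases. In SPL it was 0.93 with total-count scaling, under the threshold.

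**Figure D2:**
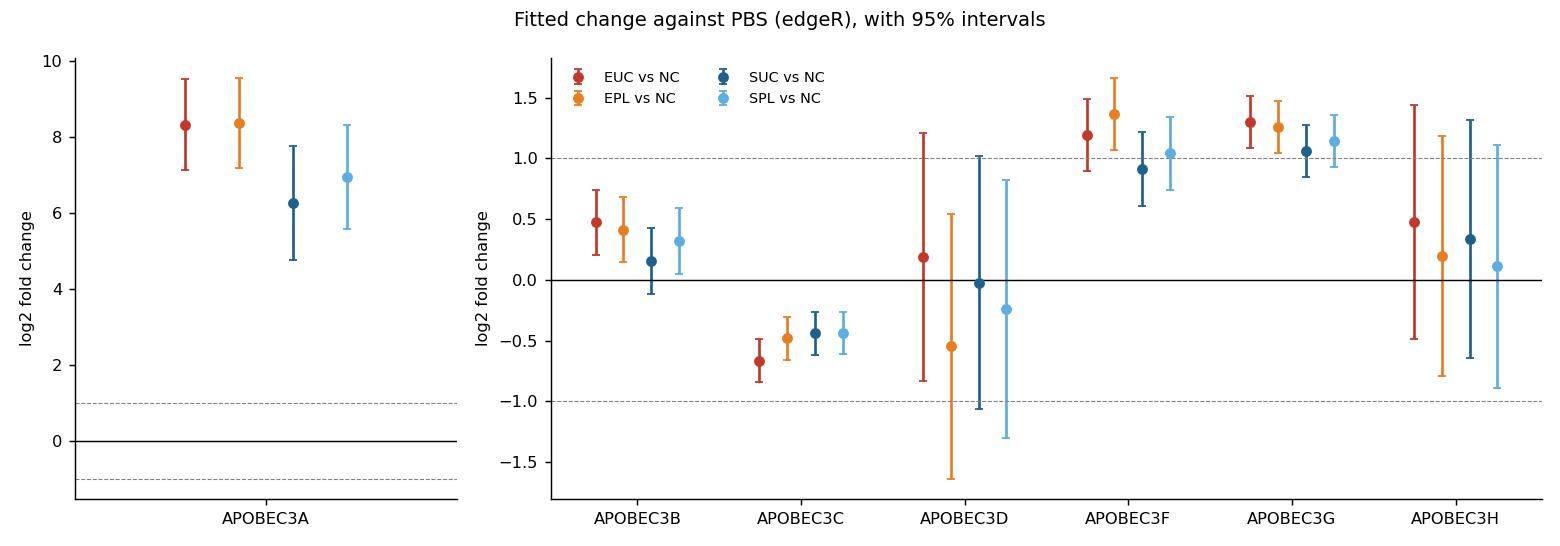
Fitted log2 fold change against NC (vertical axis) of APOBEC3A (left panel, its own axis) and the other 6 genes (right panel) in EUC, EPL, SUC and SPL. Points are edgeR estimates, bars are 95% intervals and dashed lines mark 2-fold changes. APOBEC3C is the one gene whose intervals lie below 0 in all 4 comparisons, and the intervals of APOBEC3D and APOBEC3H are the widest in the right panel and cross 0.

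APOBEC3C, a single-domain member with weak activity on HIV-1, was the only one that fell. Its NC libraries were at 47.6, 48.1 and 44.9 CPM. The EUC libraries were at 31.4, 27.6 and 29.6 CPM and the EPL libraries at 35.2, 31.1 and 34.5 CPM. The SUC libraries were at 34.0, 36.3 and 33.4 CPM and the SPL libraries at 34.5, 33.6 and 36.0 CPM. All 12 stimulated libraries (27.6 to 36.3 CPM) thus lay below all NC libraries (44.9 to 48.1 CPM), as they did for 16.1% of the tested genes. On the log2 scale APOBEC3C fell by 0.67 (SE 0.0833) with EUC, by 0.48 with EPL, by 0.44 with SUC and by 0.43 with SPL. The adjusted p-values of edgeR were 4.82e-06, 1.59e-04, 5.21e-04 and 4.98e-04, and no change reached 2-fold. Falls past the p threshold were seen for 14%, 13.2%, 9.15% and 10.6% of the tested genes in these comparisons. In all 4 comparisons together such falls were seen for 7.67% of the tested genes. The fall passed that threshold in 13 of 14 alternative settings in each comparison, the exception being the test against a 2-fold change.

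APOBEC3B, a nuclear member with a pair of domains that is studied for its mutations in tumours, changed little. Its levels were 14.6, 13.3 and 11.2 CPM in NC, 15.5, 19.0 and 19.7 CPM in EUC and 19.4, 17.5 and 15.2 CPM in EPL. They were 14.5, 14.8 and 14.2 CPM in SUC and 16.9, 14.7 and 17.2 CPM in SPL. The SUC libraries overlapped NC. The lowest EUC, EPL and SPL libraries were at 15.5, 15.2 and 14.7 CPM, against 14.6 CPM in the highest NC library. The share of all tested genes with such a gap was not counted for single groups. The log2 fold change was 0.47 in EUC with an edgeR adjusted p of 0.00626, which passed the p threshold, as 16.5% of tested genes did in this direction. It passed in 6 of 14 alternative settings, with adjusted p-values from 0.00172 to 1. The values in EPL (0.42, edgeR adjusted p = 0.0154), SUC (0.15, 0.406) and SPL (0.32, 0.0619) did not pass.

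APOBEC3D and APOBEC3H, both known to act on HIV-1 without Vif, APOBEC3H in some of its haplotypes, were scarcely detected. APOBEC3D had 5 to 22 counts per library, or 0.319 to 1.41 CPM, and APOBEC3H had 5 to 13 counts, or 0.319 to 0.855 CPM. The groups of both genes overlapped throughout. In the order EUC, EPL, SUC and SPL, the log2 fold change of APOBEC3D was 0.19, -0.55, -0.02 and -0.24, and that of APOBEC3H was 0.48, 0.19, 0.34 and 0.11. No adjusted p of edgeR for either gene was below 0.434. The 95% intervals of these 8 values ran from -1.64 to 1.44, and each included a 2-fold change in at least 1 direction. Such a change could therefore not be excluded at these counts. Over the alternative settings the log2 fold change of APOBEC3D in EUC ran from -1.20 to 0.58. The counts of APOBEC3D may lack reads on the exons it shares with the read-through gene, which was not tested.

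Cells given BEVs isolated by UC and PL were compared to ask whether the isolation method mattered. Among the members, 0 of 7 were DEGs between EPL and EUC and 0 of 7 between SPL and SUC by edgeR and also by DESeq2. Among all tested genes, edgeR called 0% in the former and 0.00581% in the latter comparison. At an unadjusted p under 0.05, 1 of 7 members was found in each, by both tools. Of all tested genes, 3.51% were under that p between EPL and EUC and 5.81% between SPL and SUC in edgeR. APOBEC3C was higher in EPL than in EUC by 0.19 on the log2 scale (95% interval 0.01 to 0.36, edgeR adjusted p = 0.947). APOBEC3A was higher in SPL than in SUC by 0.68 (0.04 to 1.32, edgeR adjusted p = 0.816), with SUC at 1.12 to 3.04 CPM and SPL at 2.41 to 4.09 CPM, which overlap. Between EPL and EUC it differed by 0.05 (-0.46 to 0.57). For APOBEC3G the difference was -0.04 in E. coli BEVs (-0.25 to 0.16) and 0.08 in S. aureus BEVs (-0.12 to 0.29). For APOBEC3F it was 0.17 (-0.10 to 0.45) and 0.13 (-0.16 to 0.42), and for APOBEC3B -0.06 (-0.33 to 0.21) and 0.17 (-0.10 to 0.44). These intervals exclude a 2-fold difference for APOBEC3B, APOBEC3C, APOBEC3F and APOBEC3G, and they do not exclude one for APOBEC3A between SPL and SUC. For APOBEC3D and APOBEC3H the intervals of all 4 differences were wider and did not exclude one either. In the test of whether the difference between the methods itself differed by species, 0 of 7 members were called, and 0 of 7 had an unadjusted p under 0.05, in edgeR and in DESeq2. Of all tested genes, edgeR called 0%, and 3.83% were under that unadjusted p.

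Between the species, APOBEC3A was the only member called. All 6 libraries with E. coli BEVs (7.62 to 11.4 CPM) lay above all 6 with S. aureus BEVs (1.12 to 4.09 CPM), which was so for 3.05% of the tested genes. The mean log2 level was higher with E. coli BEVs by 1.74 (SE 0.193, 95% interval 1.33 to 2.15), with an edgeR adjusted p of 1.92e-05. This made APOBEC3A 1 of 114 genes called higher with E. coli BEVs, 0.663% of those tested, and it was number 15 among them by size. In the UC groups alone the difference was 2.06 (edgeR adjusted p = 0.000241) and in the PL groups alone 1.43 (0.0127), which missed the p threshold. A test against a 2-fold change gave an edgeR adjusted p of 0.194. E. coli BEVs were given at a lower protein concentration than S. aureus BEVs, so the species and the dose cannot be told apart.

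The other members were closer between the species. APOBEC3F was higher with E. coli BEVs by 0.30 on the log2 scale (95% interval 0.10 to 0.50, edgeR adjusted p = 0.0704) and APOBEC3G by 0.18 (0.03 to 0.33, adjusted p = 0.166), and neither passed the p threshold, as 3.87% of the tested genes did in either direction. APOBEC3B differed by 0.21 (0.02 to 0.40) and APOBEC3C by -0.14 (-0.26 to -0.01), with edgeR adjusted p-values of 0.241 and 0.239. The intervals of these 4 genes exclude a 2-fold difference. Those of APOBEC3D (-0.80 to 0.71) and APOBEC3H (-0.57 to 0.79) also lay within 2-fold, but rest on few counts. In the UC and PL groups alone the intervals were -0.82 to 1.25 and -1.43 to 0.82 for APOBEC3D. For APOBEC3H they were -0.80 to 1.08 and -0.91 to 1.07. The APOBEC3D estimate ran from -0.83 to 0.21 over the alternative settings. A 2-fold difference is therefore not excluded for either gene. In order of level, the 5 groups of APOBEC3A ran EPL, EUC, SPL, SUC and NC, and the ranges of neighbours overlapped within each species only. For APOBEC3F and APOBEC3G the 4 stimulated groups overlapped their neighbours and the gap lay above NC. For APOBEC3C the order was NC, SPL, SUC, EPL and EUC, with the gap below NC.

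To compare levels between members, CPM values were divided by the length of each gene's canonical transcript in kilobases, leaving out APOBEC3D for its shared exons. In NC the 6 genes summed to 40.1 ± 2.22 CPM per kilobase (SD, n = 3). The sum was 63.4 ± 6.37 with EUC, 64.0 ± 2.02 with EPL, 52.7 ± 1.28 with SUC and 56.5 ± 2.48 with SPL. In NC, APOBEC3C made up 44.3% ± 0.886 of this sum, APOBEC3G 31.3% ± 1.79 and APOBEC3B 20.4% ± 1.98. In EUC, APOBEC3G made up 48.8% ± 0.792, APOBEC3B 18.0% ± 2.09, APOBEC3C 17.7% ± 1.90 and APOBEC3A 10.4% ± 1.23. The share of APOBEC3A was 10.8% ± 0.772 in EPL, 3.04% ± 1.32 in SUC and 4.52% ± 1.15 in SPL. APOBEC3G held the largest share in every stimulated group with these lengths, from 47.0% in EPL to 49.7% in SUC.

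The order of the members depended on the length used. The canonical transcript of APOBEC3G has 1564 bases, and all its annotated exons together have 5375. With the union of exons as length, chosen after seeing the data, the sum was 29.6 CPM per kilobase in NC and 31.7 to 38.2 in the stimulated groups. APOBEC3C then held the largest share in every group, with 59.9% in NC, 30.3% in EUC and 41.2% in SUC, and APOBEC3G held 12.3%, 24.3% and 24.0% there. A larger share of APOBEC3G and a smaller share of APOBEC3C in stimulated cells than in NC were found with both lengths.

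**Figure D3:**
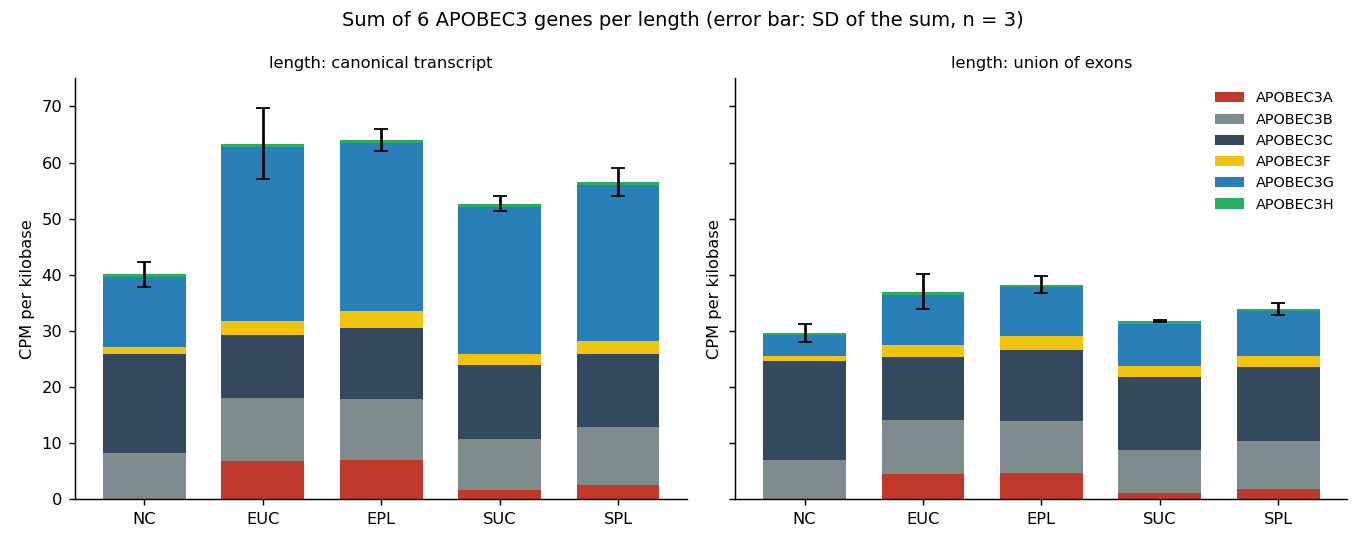
Stacked mean levels of 6 APOBEC3 genes (APOBEC3D left out) in CPM per kilobase in NC, EUC, EPL, SUC and SPL, with lengths from canonical transcripts (left) or from the union of exons (right). The error bar is the SD of the sum over 3 libraries. On the left APOBEC3C is the largest part in NC and APOBEC3G in all stimulated groups, whereas on the right APOBEC3C is the largest part throughout.

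Over the 15 libraries, log2 CPM of APOBEC3A went with that of APOBEC3G (Pearson's r = 0.97) and APOBEC3F (0.93) and against that of APOBEC3C (-0.92). These values largely describe the step from NC to stimulated cells that the libraries share. Over the 12 stimulated libraries alone they were 0.84, 0.59 and -0.61. The genes outside the family with the most similar pattern were taken from 15461 tested genes with a mean of at least 1 CPM in a group. For APOBEC3A they were OLR1, a receptor for oxidized low-density lipoprotein (0.993), the cytokine gene IL33 (0.992) and ETV3L (0.991). OLR1 had 1 count in NC, IL33 and ETV3L had 0, and all 3 were higher with E. coli than with S. aureus BEVs, by 1.51, 1.79 and 1.92 on the log2 scale. As these genes were chosen for their likeness to APOBEC3A in the same libraries, these traits follow from the choice and are no separate result. For APOBEC3G the nearest were APOL1, an interferon-inducible apolipoprotein gene that lies elsewhere on the same chromosome (0.991), RND3 (0.991) and ENSG00000258875 (0.991). For APOBEC3F they were RASGRF1 (0.968), TNK2 (0.967) and OR2B11 (0.965).

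**Figure D4:**
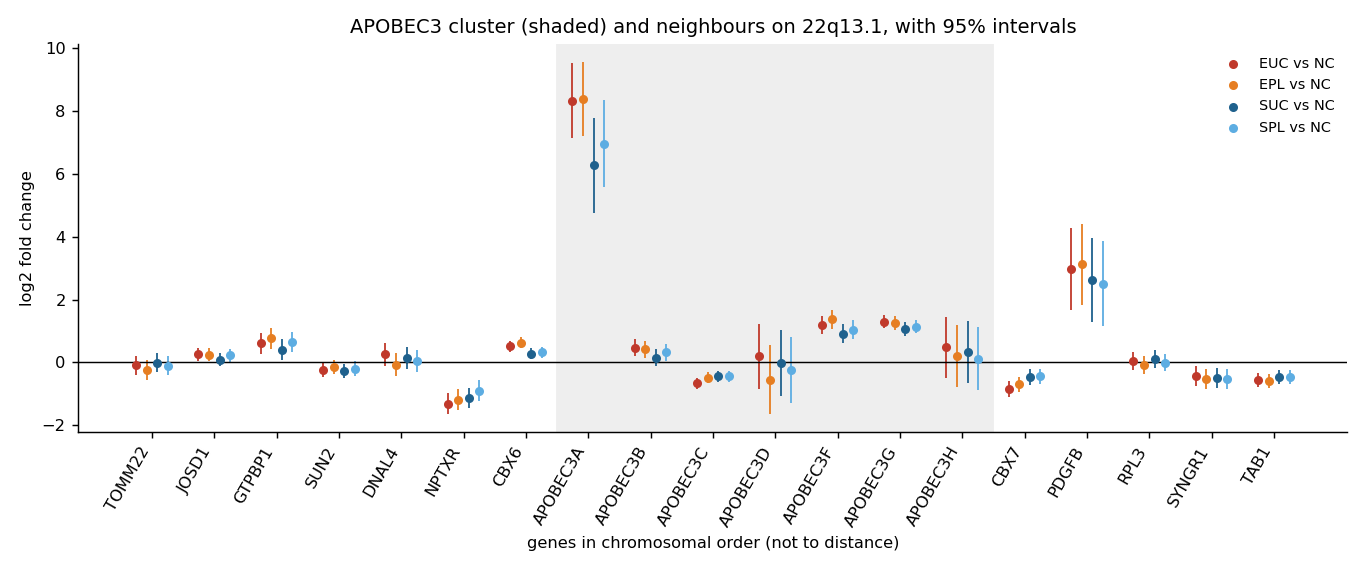
Fitted log2 fold change against NC (vertical axis) of the 7 APOBEC3 genes (shaded) and 12 neighbouring genes in chromosomal order, not drawn to distance. Values are for EUC, EPL, SUC and SPL, and bars are 95% intervals derived from the edgeR test. Within the cluster APOBEC3B, APOBEC3C and APOBEC3D, none of which was a DEG, separate the rise of APOBEC3A from those of APOBEC3F and APOBEC3G. The latter 2 genes are next to each other. Among the 12 neighbours PDGFB rose the most and NPTXR fell the most.

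The neighbours were examined to see whether changes extended beyond the cluster. Of 12 neighbouring genes, 1 was a higher DEG in all 4 comparisons, as were 6.33% of tested genes. None was a lower DEG in all 4, and the median mean log2 fold change of the 12 was -0.05, beside -0.0022 over all tested genes. By the p threshold alone, 3 were higher and 3 lower in EUC, EPL and SPL, and 1 higher and 3 lower in SUC. Of all tested genes, 16.5% were higher and 14% lower in EUC, and 12.4% and 9.15% in SUC. CBX7, which borders the cluster, fell past that threshold in all 4 (-0.85, -0.69, -0.46 and -0.44). CBX6, on the other border, rose past it in EUC (0.52), EPL (0.63) and SPL (0.33). PDGFB, a growth factor gene on the far side of CBX7, rose by 2.51 to 3.13 on the log2 scale, from a low level of 0.143 ± 0.126 CPM in NC. NPTXR, on the other side of CBX6, fell from 18.5 ± 1.36 CPM in NC to 7.46 ± 1.30 in EUC, 8.15 ± 1.02 in EPL and 8.46 ± 1.43 in SUC, and was at 9.95 ± 1.46 CPM in SPL, where the log2 fold change of -0.89 missed 2-fold. Inside the cluster, APOBEC3C fell and the adjoining APOBEC3D was not called, while APOBEC3F and APOBEC3G, which follow them, rose.

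The interferon pathway was examined next, since several members are interferon-inducible. Of 21 interferon-stimulated genes, 21 were higher DEGs in each of the 4 comparisons, as were 6.33% of all tested genes. Their median mean log2 fold change was 3.64, beside -0.0022 over all tested genes. IFIT1, which binds foreign RNA, was at 4.83 ± 0.678 CPM in NC and 209 ± 34.6 in EUC, and IFI44 at 3.71 ± 0.922 and 141 ± 13.6 CPM. Of 13 tested genes of type I interferon signalling, 6 were higher DEGs in all 4 comparisons, with a median of 1.37. Among them IRF7, a transcription factor of interferon genes, rose by 2.49 to 3.03 on the log2 scale and USP18, which dampens the receptor, by 3.36 to 3.84. Of 14 subunits, inhibitors and kinases of NF-kappa B, 7 were higher DEGs in all 4 comparisons (median 1.07), led by NFKBIZ and NFKB2. APOBEC3F and APOBEC3G thus changed by less than the median of the interferon-stimulated genes, and APOBEC3A by more.

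Between the species, 13 of 21 interferon-stimulated genes passed the p threshold, all higher with E. coli BEVs, with a median difference of 0.48 on the log2 scale. By edgeR 0 of them reached 2-fold as DEGs, and DESeq2 also called 0, while 20 had an unadjusted p under 0.05 with either tool. Of all tested genes, 17% had such a p in edgeR. The differences of the 21 genes ran from 0.22 to 0.61, with IFIT1 (0.58) and IFI44 (0.56) near the upper end. That of APOBEC3A, 1.74, was above this range, that of APOBEC3F (0.30) within it and that of APOBEC3G (0.18) below it.

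Other factors that restrict retroviruses were set beside the family. Of 20 such genes 11 were higher DEGs in all 4 comparisons, as were 6.33% of all tested genes, and none was a lower DEG. The median mean log2 fold change of the 20 was 1.70. GBP5 and GBP2, guanylate-binding proteins that impair viral envelope maturation, showed the largest rises. GBP5 was at 0.403 ± 0.117 CPM in NC and 27.7 ± 1.75 in EUC, and GBP2 at 1.14 ± 0.325 and 44.6 ± 1.62 CPM.

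Of 11 other deaminases, 7 were tested. The other APOBEC genes listed were absent or almost so, with 0 counts for APOBEC1, 33 for APOBEC2 and 9 for APOBEC4 over all 15 libraries. ADAR, which deaminates adenosine in double-stranded RNA and has an interferon-inducible form, was the only other deaminase that rose. It was at 511 ± 4.68 CPM in NC and between 1103 ± 185 (SUC) and 1378 ± 158 CPM (EPL) in stimulated groups, and was a DEG in all 4 comparisons, with log2 fold changes of 1.11 to 1.43, close to those of APOBEC3G. CDA, which deaminates free cytidine, was at 4.07 ± 0.688 CPM in NC and 1.62 ± 0.108 in EPL, where it was a lower DEG (log2 fold change -1.32, edgeR adjusted p = 6.64e-05). It also passed the p threshold, short of 2-fold, in SUC (-0.999, edgeR adjusted p = 0.00107) and SPL (-0.895, 0.00221). In EUC it did not pass (-0.646, edgeR adjusted p = 0.0149), and between EPL and EUC the edgeR adjusted p was 0.947.

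Genes that act on the products or partners of the family included no DEG against NC. Of 15 genes for the repair of uracil and abasic sites, edgeR and DESeq2 called 0 as DEGs in any comparison with NC, although 4 to 9 had an unadjusted p under 0.05 in edgeR. Of 8 host cofactors of the Vif ubiquitin ligase both tools likewise called 0, with 2 to 3 under that unadjusted p. Of 14 cell-cycle regulators that are known to control APOBEC3B, both called 0, with 5 to 9 under that unadjusted p. Among all 17198 tested genes, 40.4% to 48.1% were under that unadjusted p in edgeR and 9.88% to 15.2% were DEGs, against 26.7% to 60%, 25.0% to 37.5% and 35.7% to 64.3% of these lists under that p. At the adjusted p threshold alone, 1 repair gene was higher and 3 lower in EUC, and 2 and 5 in EPL. In SUC and SPL 1 was lower in each and none higher. Of all tested genes, 14%, 13.2%, 9.15% and 10.6% were lower at that threshold in EUC, EPL, SUC and SPL. Of the Vif cofactors 1 to 2 were higher and none lower. Among the cell-cycle regulators 2 were higher in each comparison, and 2 were lower in EUC only. The median log2 fold change of these 3 lists over the 4 comparisons was 0.05, 0.10 and -0.07.

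**Figure D5:**
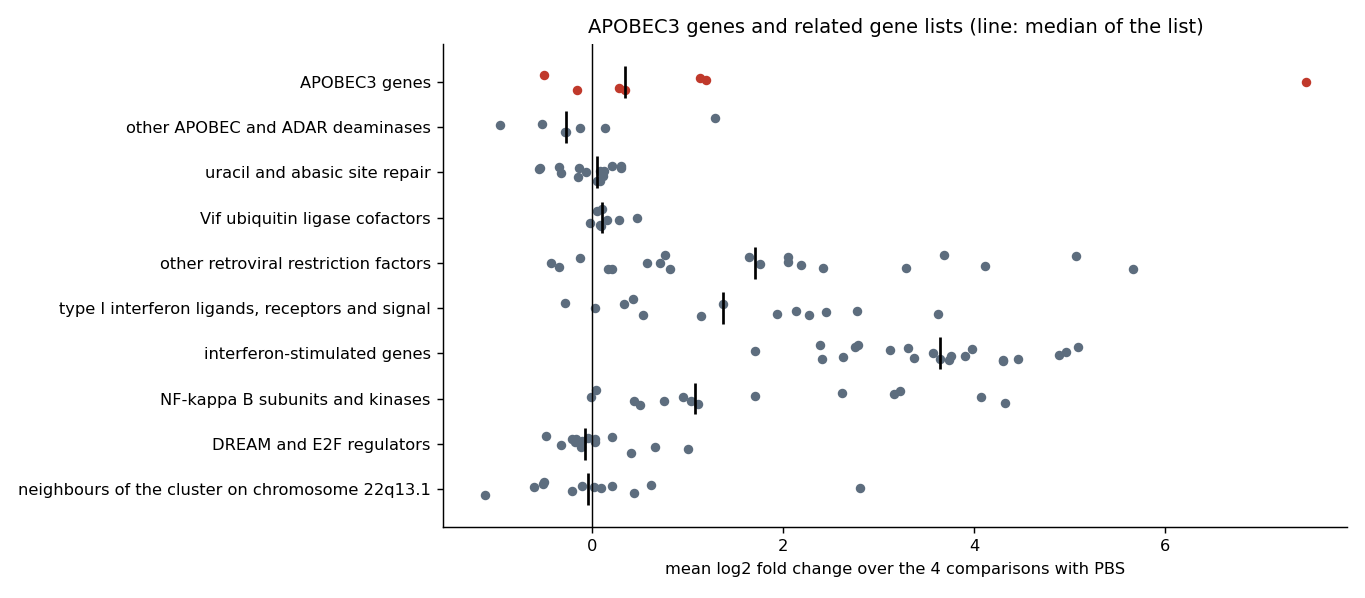
Mean log2 fold change over the 4 comparisons with NC (horizontal axis) of the 7 APOBEC3 genes (red) and the tested genes of 9 related lists (grey), 1 point per gene, with a line at each list's median. The APOBEC3 genes spread from APOBEC3C below 0 to APOBEC3A beyond all listed genes, whereas the interferon-stimulated genes all lie above 0 with a median of 3.64 and the repair genes and Vif cofactors lie around 0.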

How the data were processed

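RNA-seq of 15 THP-1 libraries was used. The authors aligned paired reads to hg38 and deposited whole-number read counts per Ensembl gene, without normalization. The submitters' processing notes list FastQC 0.11.5, HISAT2 2.1.0, StringTie 1.3.3b, DESeq 1.28.0 and featureCounts. Neither strand setting nor annotation release was given in the sources used here, which leaves overlapping, antisense and duplicated genes uncertain. Libraries were grouped by their titles in the labels, and 0 columns of values were left unused.

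From the deposited counts, filterByExpr of edgeR 4.0.16 (R 4.3.3) kept 17198 genes, and counts were scaled by TMM and fitted with glmQLFit and glmQLFTest over all 15 libraries without a replicate block. P-values were adjusted by Benjamini-Hochberg over all tested genes. As the edgeR test gives no SE, it was taken as the absolute log2 fold change divided by the square root of the F statistic. The 95% intervals of log2 fold changes were computed from this SE with the t distribution. Log2 CPM used a prior count of 2. Alternatives were DESeq2 1.42.0, other scalings, no filter, a test against 2-fold (glmTreat), the compared groups only, a replicate block and each library left out. The script was tested on simulated counts. Positions and lengths came from GENCODE 44.

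The members and gene lists were chosen with earlier results of these data known. Beside all members, the text names up to 2 DEGs per list and direction with the largest mean change, and for each called member the 3 genes with the highest Pearson's r. Genes named only for their position or near-zero counts, and the markers, were named outside this rule after their values were seen. A further listed gene is not reported here.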

Additional observations from a re-analysis of the deposited data

Results flagged for a closer look

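APOBEC3A stood out because its response to E. coli BEVs and to S. aureus BEVs differed in a test of the difference itself. The log2 level was 1.74 higher with E. coli BEVs, and the edgeR adjusted p was 1.92e-05. The level was 7.62 to 11.4 CPM in the 6 libraries with E. coli BEVs and 1.12 to 4.09 CPM in the 6 with S. aureus BEVs, against at most 0.0588 CPM in NC. The protein concentration of the vesicles differed with the species, so the 2 cannot be told apart.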

How the results depend on the processing

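No result among the members turned its direction once called. With the test against a 2-fold change (glmTreat), APOBEC3A alone was called in each of the 4 comparisons with NC (1 member in EUC, EPL, SUC and SPL) and 0 members between the species. With total counts as the only scaling, 1 member was called in SUC (APOBEC3A) and 2 in SPL (APOBEC3A and APOBEC3G), and the median log2 fold change of all genes shifted to between -0.16 (EUC) and -0.11 (SUC). Alternatives chosen after seeing the data were each isolation method alone, the fit without the libraries that cluster apart and the union-of-exons length. Between EPL and SPL alone, 0 members were called, and between EUC and SUC alone 1. With each library left out in turn, the calls were 3 to 3 in EUC, EPL and SPL, 2 to 3 in SUC, 1 to 1 between the species and 0 to 0 for the methods and their difference by species. NC replicate 2 held the 1 count of APOBEC3A in NC. Without that library the fitted log2 changes were 10.13 for EUC, 10.18 for EPL, 8.08 for SUC and 8.77 for SPL. These depend on the default prior count of edgeR's fit, which is not the prior count of 2 used for log2 CPM. The replicate numbers were taken as not pairing the libraries, since only 7 of 30 same-number pairs had correlated deviations above 0.1. As a hint from the data, not the design, 9 of 15 libraries correlated best with their own number. With the replicate block the calls were 3 in EUC, EPL and SPL, 2 in SUC, 1 between the species and 0 for the methods, the same as without it. DESeq2, DESeq2-type size factors, no filter and the compared groups alone changed no count of called members. Low counts limit APOBEC3D and APOBEC3H, with 22 or fewer per library, and the ratio of APOBEC3A to NC. For APOBEC3D, reads on the exons shared with the read-through gene may also have gone uncounted, which was not tested.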
